A study of Arabidopsis thaliana with 8 samples.

Results

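The light-harvesting antenna and the nuclear-encoded subunits of photosystems I and II were followed over 4 conditions in leaves and shoot apices of *Arabidopsis*, as 45 of the 33602 genes in the deposited expression table. The members were taken by gene identifier and fall into 5 classes by role. These are 6 genes of the photosystem I antenna (*LHCA*), 15 genes of the photosystem II antenna (*LHCB*), 3 genes of photoprotection (*PSBS*, *ELIP1* and *ELIP2*), 12 subunit genes of photosystem I (*PSA*) and 9 subunit genes of photosystem II (*PSB*). The last 2 classes are called core subunits below, 21 genes in all. The plants were of the Col ecotype with no transgene or mutation, grown on soil in long days (16 hours of light) under simulated sun for 2 weeks. They were then moved to simulated shade, which is the same white light with more far-red and thus a lower red to far-red ratio at the same photosynthetically active radiation, or left in simulated sun. The move took place 4 hours after dawn (ZT 4) and tissue was taken 1 hour and 4 hours later from both lights. Each of the 4 conditions had 2 replicates, and each replicate was a pool of 5 plants from which cotyledons, hypocotyls and roots had been removed. Shade and sun were compared at the same hour of the day. In shade the 4-hour and 1-hour samples differ in both time since the move and time of day, which cannot be told apart. The sun plants were not moved, and their samples at 4 hours and 1 hour differ in time of day.

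In oxygenic photosynthesis, photosystem II takes electrons from water and photosystem I passes them on to ferredoxin. Chlorophyll-binding antenna proteins gather the light for each: LHCA proteins form a belt on photosystem I, while LHCB1, LHCB2 and LHCB3 form the trimers of the major antenna LHCII and LHCB4, LHCB5 and LHCB6 are the monomeric proteins that join these trimers to photosystem II. The reaction centre proteins themselves are plastid-encoded and are not members here, and the nuclear *PSA* and *PSB* genes encode the smaller subunits around them. *LHCB* transcripts are classical outputs of both the phytochromes, which read the red to far-red ratio, and the circadian clock, which places their peak in the morning.

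Levels are given in CPM, the number of reads on a gene per 1000000 reads of its library after scaling. The 8 libraries held 1154019 to 4680620 reads on genes. The smallest was replicate 1 of shade at 4 hours, in which 1 read stood for 0.856 CPM, against 0.216 to 0.291 CPM in the other 7. Transcripts of 3 leaf genes were abundant: *RBCS1A*, a Rubisco small subunit, at 16048 to 26147 CPM, *CA1* at 1387 to 2700 CPM and *RCA* at 2773 to 3934 CPM. The apex genes *STM*, *KNAT1* and *CUC3* were detected in every library at 1.10 to 16.3 CPM, and the root genes *IRT1* and *COBL9* were at 0 to 0.287 CPM. The third root gene, *PYK10*, stood at 169 to 314 CPM. The treatment was visible in *ATHB2* and *IAA29*, a pair of genes that shade induces, which rose by 2.83 and 4.42 on the log2 scale at 1 hour of shade (limma adjusted p = 0.0145 and 1.41e-04). Another such gene, *PIL1*, had 1.99 (SE 0.48, limma adjusted p = 0.136). At 4 hours of shade the replicates differed in these genes: *IAA29* was at 42.0 and 12.5 CPM and *ATHB2* at 20.6 and 6.68 CPM in replicates 1 and 2, against 1.90 to 3.53 CPM in the sun libraries of that time. From 1 to 4 hours in sun, the log2 changes of the 3 leaf genes ran from -0.32 (*RCA*) to 0.79 (*CA1*), with a median of 0.48. Only *CA1* passed an adjusted p of 0.05 in limma, and it was higher (2.15% of all genes were). In shade their changes ran from -0.20 to 0.65 and 0 passed. Whether a lower value of a leaf gene reflects fewer leaf cells in the pool or less RNA per cell cannot be told apart in whole-tissue libraries.

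Because the libraries were sequenced as 40-base single-end reads, the near-identical copies of the major antenna genes bear on what each value means. *LHCB1.2*, *LHCB1.1* and *LHCB1.3* lie next to each other on chromosome 1 without introns, and their 804 coding bases differ at 47 positions. The coding bases 5 to 84 of the 3 genes are printed here from RefSeq annotation of TAIR10.1, as the stretch of 80 bases in which they differ most. The 9 positions that differ between any of them are in capitals, and no other stretch of this length holds more.
LHCB1.1: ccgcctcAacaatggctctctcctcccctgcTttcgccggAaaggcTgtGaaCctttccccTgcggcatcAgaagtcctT
LHCB1.2: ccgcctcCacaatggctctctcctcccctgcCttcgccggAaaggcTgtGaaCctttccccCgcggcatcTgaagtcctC
LHCB1.3: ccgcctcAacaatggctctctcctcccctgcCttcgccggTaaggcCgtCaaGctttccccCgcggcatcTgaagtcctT
In pairs, the coding sequences of *LHCB1.1* and *LHCB1.2* were 95.6% identical, those of *LHCB1.1* and *LHCB1.3* 96.1% and those of *LHCB1.2* and *LHCB1.3* 96.4%. Of the 40-base windows of their transcripts, 74.8% (*LHCB1.1*), 82.7% (*LHCB1.2*) and 76.2% (*LHCB1.3*) occurred at a single place in the genome. In genes with introns, windows across a splice junction are absent from the genome and were counted with these. Counted so, the share was 81.7% for *LHCB1.4*, 77.4% for *LHCB1.5*, 74.5% for *LHCB2.1*, 66.8% for *LHCB2.2*, 84.9% for *LHCA2* and 99.2% for *LHCB4.2*, and 100% for the other 36 genes. How reads from shared windows were assigned is not given in the sources used here, so the split of reads among *LHCB1.1* to *LHCB1.5* and between *LHCB2.1* and *LHCB2.2* is uncertain. *LHCB2.3* shares no exact window with another gene. Windows that differ by a few bases were not searched, so whether its value depends on such assignment was not tested.

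The 250 bases before the annotated transcript start are shown for the LHCB2 genes, whose transcripts changed most over time, and for *LHCB1.3*, the *LHCB1* gene with no detected change. In TAIR10.1, the build of the RefSeq annotation, the windows are chr2:1824481-1824730, minus strand for *LHCB2.1*, chr2:1800473-1800722, minus strand for *LHCB2.2*, chr3:10255656-10255905, plus strand for *LHCB2.3* and chr1:10477635-10477884, plus strand for *LHCB1.3*, each in a region upstream of a gene. They run 5' to 3' in the direction of transcription. Capitals mark matches to any of the 7 motifs that were searched on both strands.
LHCB2.1: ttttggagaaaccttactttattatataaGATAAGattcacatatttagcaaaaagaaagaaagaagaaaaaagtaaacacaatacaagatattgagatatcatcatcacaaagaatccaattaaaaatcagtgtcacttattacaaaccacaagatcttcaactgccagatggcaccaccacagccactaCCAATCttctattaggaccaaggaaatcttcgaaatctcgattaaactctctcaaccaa
LHCB2.2: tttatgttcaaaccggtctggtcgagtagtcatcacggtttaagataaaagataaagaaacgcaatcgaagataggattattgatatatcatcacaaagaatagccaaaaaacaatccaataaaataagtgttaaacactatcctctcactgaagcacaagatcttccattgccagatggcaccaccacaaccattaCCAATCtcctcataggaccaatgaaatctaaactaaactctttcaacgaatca
LHCB2.3: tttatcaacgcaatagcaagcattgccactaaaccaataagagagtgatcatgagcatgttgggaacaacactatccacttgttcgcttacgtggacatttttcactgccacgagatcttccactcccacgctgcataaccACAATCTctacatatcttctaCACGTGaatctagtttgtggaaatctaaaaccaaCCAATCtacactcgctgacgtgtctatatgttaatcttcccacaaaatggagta
LHCB1.3: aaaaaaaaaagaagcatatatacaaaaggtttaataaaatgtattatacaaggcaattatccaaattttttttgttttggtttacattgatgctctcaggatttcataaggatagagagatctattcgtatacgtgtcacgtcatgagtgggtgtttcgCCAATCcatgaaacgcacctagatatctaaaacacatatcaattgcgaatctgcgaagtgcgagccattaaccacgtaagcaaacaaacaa
All 4 windows hold CCAATC, which contains the CCAAT box and begins 59, 53, 54 and 91 bases before the start in *LHCB2.1*, *LHCB2.2*, *LHCB2.3* and *LHCB1.3*, respectively. The window of *LHCB2.3* also holds the G-box CACGTG. Farther upstream in the same window is ACAATCT, part of a binding site known for the clock factor CCA1, and that of *LHCB2.1* holds the I-box GATAAG. Across members, CCAATC was found before 3 of 6 photosystem I antenna genes, 7 of 15 photosystem II antenna genes and 1 of 21 core subunit genes, and before 10.2% of 27443 nuclear protein-coding genes. The G-box CACGTG was found before 1, 4 and 4 genes of these classes (6.49% of all genes), GATAAG before 1, 3 and 5 (12.3%), AAAATCT, also part of a CCA1 site, before 1, 5 and 6 (16.5%), and ACAATCT before 0, 3 and 1 (4.81%). The evening element core AAATATC was found before 1, 0 and 1 genes (12.2%) and CACATG before 1, 2 and 1 (11.1%). CACGTG reads the same on both strands, and no motif of the 7 contains another. A match describes the letters in the window only.

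Set against transcript length, the members spanned a wide range of levels. *LHCB1.3* was the highest, at a mean of 10158 CPM per kb of exon over the 8 libraries, followed by *LHCB1.5* at 4143, *LHCA1* at 3296, *PSBR* at 3232 and *LHCA4* at 3177 CPM per kb. *LHCB2.1* and *LHCB2.3* (AT3G27690) stood at 342 and 341 CPM per kb, well below the *LHCB1* genes. *LHCA5* and *LHCA6*, which tether photosystem I to the NDH complex of cyclic electron flow, reached only 131 and 115 CPM per kb. *LHCB4.3* and *LHCB7* were lower still, at 15.9 and 7.35 CPM per kb, and *ELIP1* and *ELIP2* (AT4G14690) had 2.17 and 0.620 CPM per kb. Of the 45 members, 44 passed the filter of at least 1 CPM in at least 2 libraries and were tested. *ELIP2* did not.

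**Figure D1:**
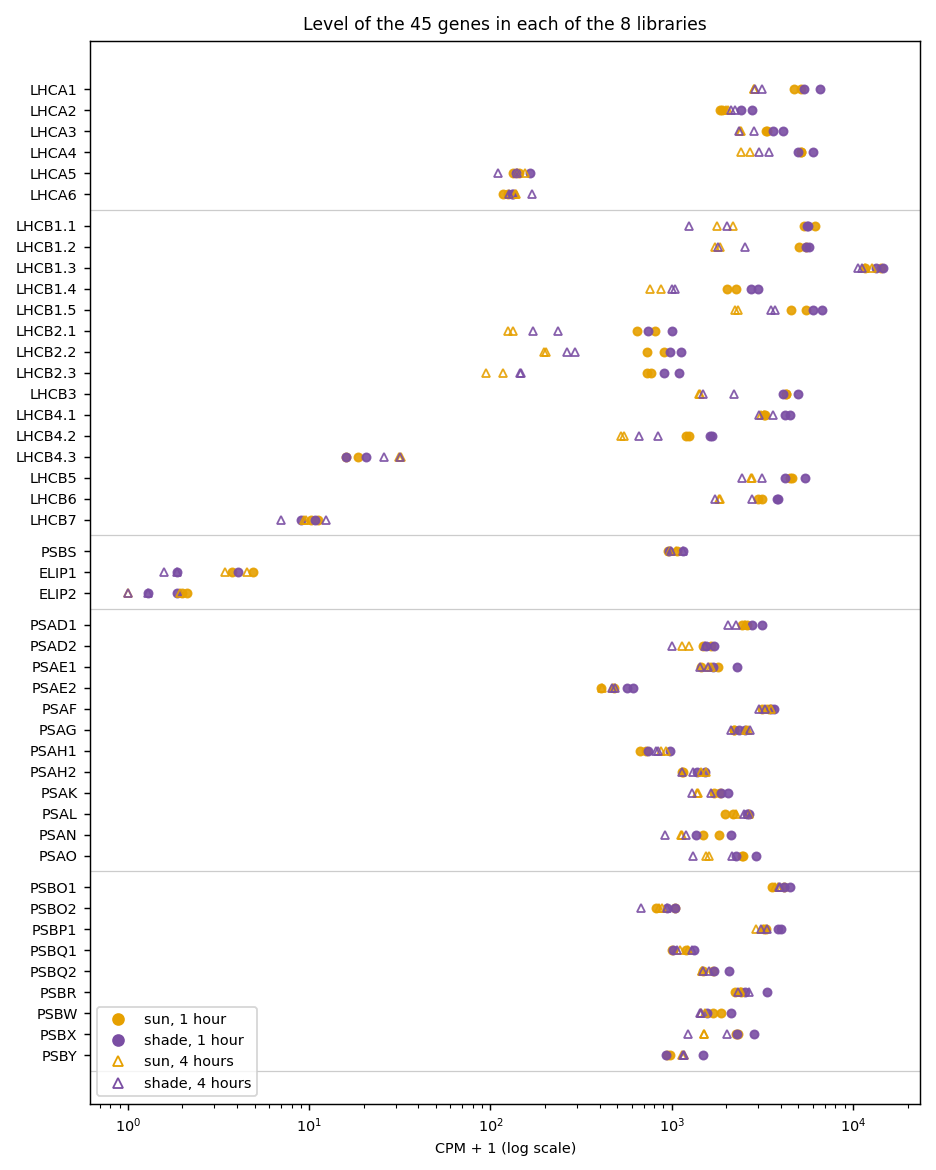
Level of each of the 45 genes in CPM + 1 on a log axis, with 1 point per library (8 per gene; filled circles, 1 hour; open triangles, 4 hours; orange, sun; purple, shade), grouped by class. Triangles of most LHCB genes lie left of the circles, with LHCB1.3, LHCB4.1 and LHCB7 as exceptions and LHCB4.3 on the other side, while points of the core subunits are close together.

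The clearest differences among these genes were between 1 hour and 4 hours. In sun, 12 of the 44 tested members passed an adjusted p of 0.05 in limma, 11 of them lower and 1 higher at 4 hours, while 3.58% of all 19280 genes tested did so (1.44% lower, 2.15% higher). In shade 11 members passed, all of them lower, against 3.76% of all genes (1.81% lower, 1.95% higher). The 11 lower genes were the same in both lights: *LHCB1.1*, *LHCB1.2*, *LHCB1.4*, *LHCB1.5*, *LHCB2.1*, *LHCB2.2*, *LHCB2.3*, *LHCB3*, *LHCB4.2*, *LHCA1* and *LHCA4*. All are antenna genes, and by the same test 0 of the 21 core subunit genes passed in either light. At the threshold of the study, an adjusted p of 0.001, 4 members were lower in sun (0.13% of all genes) and 5 in shade (0.135%), all of the photosystem II antenna. The counts at 0.05 varied with the library left out, with ranges given at the end. The 11 lower genes were fitted below 0 in each of these fits in both lights. Of the members called, 4 in sun (*LHCB1.4* and the LHCB2 genes) and 7 in shade (the same 4 with *LHCB1.1*, *LHCB1.2* and *LHCB4.2*) passed under every alternative tried.

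Among the LHCB2 genes, which encode the trimer protein whose phosphorylation moves LHCII between the photosystems, the fall was the largest of all members. *LHCB2.3* stood at 728 and 763 CPM under sun against 902 and 1099 CPM under shade at 1 hour, and 117 and 93.3 CPM under sun against 144 and 146 CPM under shade at 4 hours. Every library at 4 hours lay far below every library at 1 hour. The log2 fold change from 1 to 4 hours, on the log2(CPM + 1) scale used throughout, was -2.82 (SE 0.15, limma adjusted p = 5.61e-07) in sun and -2.77 (SE 0.15, limma adjusted p = 7.10e-07) in shade, that is a mean 7.10-fold and 6.91-fold lower CPM.
*LHCB2.1* (AT2G05100) was measured at 810 and 643 CPM under sun against 998 and 739 CPM under shade at 1 hour, and 133 and 124 CPM under sun against 171 and 233 CPM under shade at 4 hours. It changed by -2.48 (SE 0.19, limma adjusted p = 1.19e-05) in sun and by -2.10 (SE 0.19, limma adjusted p = 5.07e-05) in shade, and its 1-hour and 4-hour libraries did not overlap. *LHCB2.2* (AT2G05070), the copy with which it shares 270 windows of 40 bases, had 902 and 729 CPM under sun against 1128 and 982 CPM under shade at 1 hour, and 202 and 195 CPM under sun against 265 and 293 CPM under shade at 4 hours. Its change was -2.03 (SE 0.15, limma adjusted p = 1.07e-05) in sun and -1.91 (SE 0.15, limma adjusted p = 2.16e-05) in shade. In all 3 genes the level at 4 hours was higher in both shade libraries than in both sun libraries, as in 16.9% of all genes. None of them passed an adjusted p of 0.05 in limma for shade against sun at that time.

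The *LHCB1* genes, which encode the most abundant trimer protein, did not behave alike. *LHCB1.1* (AT1G29920) had 5359 and 6143 CPM under sun against 5608 and 5588 CPM under shade at 1 hour, and 1778 and 2188 CPM under sun against 1249 and 2005 CPM under shade at 4 hours, a change with time of -1.54 (SE 0.23, limma adjusted p = 0.00278) in sun and -1.82 (SE 0.23, limma adjusted p = 7.88e-04) in shade. For *LHCB1.2* (AT1G29910) the values were 5049 and 5479 CPM under sun against 5505 and 5725 CPM under shade at 1 hour, and 1732 and 1844 CPM under sun against 1795 and 2549 CPM under shade at 4 hours, with -1.56 (SE 0.20, limma adjusted p = 0.00114) in sun and -1.39 (SE 0.20, limma adjusted p = 0.00216) in shade. Both genes were 2.59-fold to 3.44-fold lower in mean CPM at 4 hours, depending on the light. *LHCB1.3* (AT1G29930), which lies beside them and shares 226 windows of 40 bases with *LHCB1.1*, had 11606 and 14178 CPM under sun against 13347 and 14570 CPM under shade at 1 hour, and 11671 and 12713 CPM under sun against 10711 and 11156 CPM under shade at 4 hours. The sun libraries of the 2 times overlapped and its change was -0.07 (SE 0.26, limma adjusted p = 0.922) in sun, with a 95% interval of -0.63 to 0.48, and -0.35 (SE 0.26, limma adjusted p = 0.460) in shade. *LHCB1.3* made up 40.2 to 42.3% of the summed *LHCB1* CPM in the 4 libraries at 1 hour and 54.5 to 64.2% in those at 4 hours. The sum of the other 4 *LHCB1* genes went from 16998 to 21042 CPM at 1 hour to 6512 to 9332 CPM at 4 hours. Since the genes share read-length windows, reads of *LHCB1.3* can count for its neighbours and the reverse.
The second pair, *LHCB1.5* and *LHCB1.4*, lies on chromosome 2. *LHCB1.4* (AT2G34430) had 2028 and 2257 CPM under sun against 2735 and 2986 CPM under shade at 1 hour, and 762 and 874 CPM under sun against 1003 and 1045 CPM under shade at 4 hours, and changed by -1.39 (SE 0.16, limma adjusted p = 4.05e-04) in sun and -1.48 (SE 0.16, limma adjusted p = 2.02e-04) in shade. *LHCB1.5* (AT2G34420) had 4562 and 5479 CPM under sun against 6041 and 6743 CPM under shade at 1 hour, and 2241 and 2308 CPM under sun against 3527 and 3732 CPM under shade at 4 hours, and changed by -1.14 (SE 0.19, limma adjusted p = 0.00651) in sun and -0.81 (SE 0.19, limma adjusted p = 0.0363) in shade. In shade at 4 hours *LHCB1.5* kept a higher level than any sun library of that time, as 16.9% of all genes did.

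**Figure D2:**
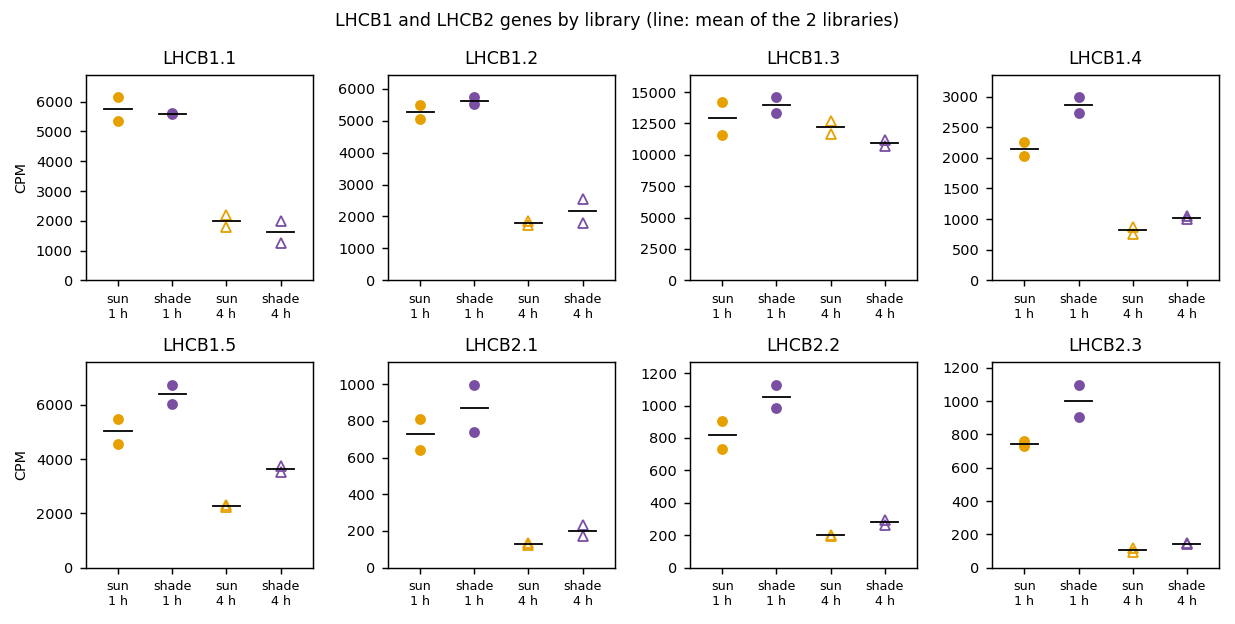
CPM of the 5 LHCB1 and 3 LHCB2 genes in each library (points, 2 per condition) with the mean of the 2 libraries (line), on linear axes from 0 that differ between panels. Levels at 4 hours are below those at 1 hour in every panel but LHCB1.3, whose sun libraries at 1 and 4 hours overlap.

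*LHCB3* (AT5G54270), the remaining trimer protein, went from 4259 and 4289 CPM under sun against 4999 and 4116 CPM under shade at 1 hour to 1413 and 1426 CPM under sun against 1491 and 2200 CPM under shade at 4 hours. This was a change of -1.59 (SE 0.21, limma adjusted p = 0.00113) in sun and -1.32 (SE 0.21, limma adjusted p = 0.00344) in shade. The genes of CP29, the monomeric antenna protein LHCB4, split. *LHCB4.2* (AT3G08940) had 1237 and 1205 CPM under sun against 1675 and 1616 CPM under shade at 1 hour, and 524 and 547 CPM under sun against 661 and 836 CPM under shade at 4 hours, and changed by -1.19 (SE 0.15, limma adjusted p = 0.00109) in sun and -1.15 (SE 0.15, limma adjusted p = 0.00132) in shade. *LHCB4.1* (AT5G01530), its more abundant partner, had 3247 and 3268 CPM under sun against 4196 and 4477 CPM under shade at 1 hour, and 3115 and 3229 CPM under sun against 3024 and 3614 CPM under shade at 4 hours. Its change was -0.04 (SE 0.19, limma adjusted p = 0.946) in sun, within a 95% interval of -0.44 to 0.36, and -0.39 (SE 0.19, limma adjusted p = 0.248) in shade. *LHCB4.3* (AT2G40100), a rare isoform of the same protein, moved the other way: it had 14.9 and 17.6 CPM under sun against 19.7 and 14.9 CPM under shade at 1 hour, and 30.2 and 31.1 CPM under sun against 24.8 and 30.5 CPM under shade at 4 hours, and its change was 0.88 (SE 0.22, limma adjusted p = 0.0440) in sun and 0.65 (SE 0.22, limma adjusted p = 0.112) in shade. Its 4-hour libraries lay above its 1-hour libraries in both lights, but the rise in sun passed in only 7 of 18 alternatives, and not with DESeq2 or after rescaling to the median ratio.
*LHCB5* and *LHCB6*, for CP26 and CP24, were lower at 4 hours in every library than in any library at 1 hour and did not pass, with -0.73 (SE 0.21, limma adjusted p = 0.0736) and -0.74 (SE 0.21, limma adjusted p = 0.0766) in sun and -0.79 (SE 0.21, limma adjusted p = 0.0505) and -0.81 (SE 0.21, limma adjusted p = 0.0531) in shade. *LHCB7* (AT1G76570), a rare member, was at 5.99 to 11.3 CPM over the 8 libraries, with a change of -0.18 (SE 0.32, limma adjusted p = 0.833) in sun and -0.09 (SE 0.32, limma adjusted p = 0.909) in shade. Over the 15 photosystem II antenna genes the median log2 change was -1.19 in sun and -1.15 in shade, where the median over all genes tested was 0.07 and 0.03. In each light 14 of the 15 were fitted below 0, and the libraries of 13 did not overlap and were lower at 4 hours. Of all genes 22.5% in sun and 20.7% in shade did so, and 33% and 25.3% did so in the other direction. An unadjusted p under 0.05 was found for 20 of the 44 members in sun and 21 in shade, against 17.6% and 21.1% of all genes.

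In the photosystem I antenna, 2 of 6 genes passed in each light. *LHCA4* (AT3G47470), which binds the red-most chlorophylls of the belt, had 5142 and 5171 CPM under sun against 6011 and 4986 CPM under shade at 1 hour, and 2410 and 2717 CPM under sun against 3020 and 3457 CPM under shade at 4 hours. Its change was -1.01 (SE 0.20, limma adjusted p = 0.0135) in sun and -0.76 (SE 0.20, limma adjusted p = 0.0497) in shade. *LHCA1* (AT3G54890), with which it forms a dimer, had 4729 and 5169 CPM under sun against 5396 and 6541 CPM under shade at 1 hour, and 2833 and 2855 CPM under sun against 2887 and 3151 CPM under shade at 4 hours, and changed by -0.80 (SE 0.19, limma adjusted p = 0.0394) in sun and -0.98 (SE 0.19, limma adjusted p = 0.0152) in shade. Both passed in 13 of 18 alternatives in sun, and *LHCA4* in 8 of 18 in shade, so these calls are less firm than those of the LHCB2 genes. Of the other dimer, *LHCA3* had log2 changes of -0.48 (SE 0.18, limma adjusted p = 0.181) in sun and -0.58 (SE 0.18, limma adjusted p = 0.0945) in shade, and *LHCA2* had 0.11 (SE 0.16, limma adjusted p = 0.794) and -0.24 (SE 0.16, limma adjusted p = 0.419). The weakly expressed *LHCA5* and *LHCA6* had 0.10 and 0.18 in sun and -0.28 and 0.15 in shade (limma adjusted p of 0.337 to 0.810). The class median was -0.19 in sun and -0.43 in shade. The first value was -0.26 to -0.27 under other scalings of the libraries and on whole reads.

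Of the 21 core subunit genes, 0 passed in sun and 0 in shade with limma, against 3.58% and 3.76% of all genes. An unadjusted p under 0.05 was found for 5 in sun and 6 in shade, against 17.6% and 21.1% of all genes. On whole reads edgeR called 1 in sun and 3 in shade and DESeq2 called 3 and 5, all of them lower at 4 hours. Leaving out a library of shade at 4 hours also gave limma calls of core genes, all lower at 4 hours. The number over all genes in those fits is not given here. Of all genes edgeR called 983 in sun and 702 in shade, and DESeq2 called 715 and 577. Fitted on only the 4 libraries compared, limma called 2 core genes higher and 5 lower at 4 hours in sun. The median log2 change was -0.0048 in sun, with 10 genes above 0 and 11 below, and -0.29 in shade, with 20 of 21 below 0. Of all genes 56.7% were above 0 in sun and 52.9% in shade. In shade the libraries of 15 core genes did not overlap and were lower at 4 hours, and in sun those of 8 were lower and those of 5 higher. Among all genes, 20.7% were lower and 25.3% higher in this way in shade, and 22.5% lower and 33% higher in sun. The core genes with the lowest values were *PSAO*, part of the LHCII docking side of photosystem I, at -0.65 (SE 0.22, limma adjusted p = 0.137) in sun, and *PSAN*, a lumenal subunit, at -0.70 (SE 0.21, limma adjusted p = 0.0831) in shade. *PSBX*, a small subunit of photosystem II, had -0.61 (SE 0.22, limma adjusted p = 0.154) in sun and -0.70 (SE 0.22, limma adjusted p = 0.0904) in shade. At the other end in sun were *PSAH2*, also of the docking side and the highest of the photosystem I subunits, at 0.38 (SE 0.15, limma adjusted p = 0.210), and *PSBY*, the highest of the photosystem II subunits, at 0.26 (SE 0.19, limma adjusted p = 0.536). In shade *PSAG*, which anchors the antenna belt, was the highest of the photosystem I subunits at -0.03 (SE 0.18, limma adjusted p = 0.940), and *PSBQ1*, of the oxygen-evolving complex, was the highest of the photosystem II subunits at 0.02 (SE 0.18, limma adjusted p = 0.964). The 95% intervals of the 21 core genes all lay within -1.16 and 0.72 in both lights, so that changes as large as those of the LHCB2 genes were outside them.

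**Figure D3:**
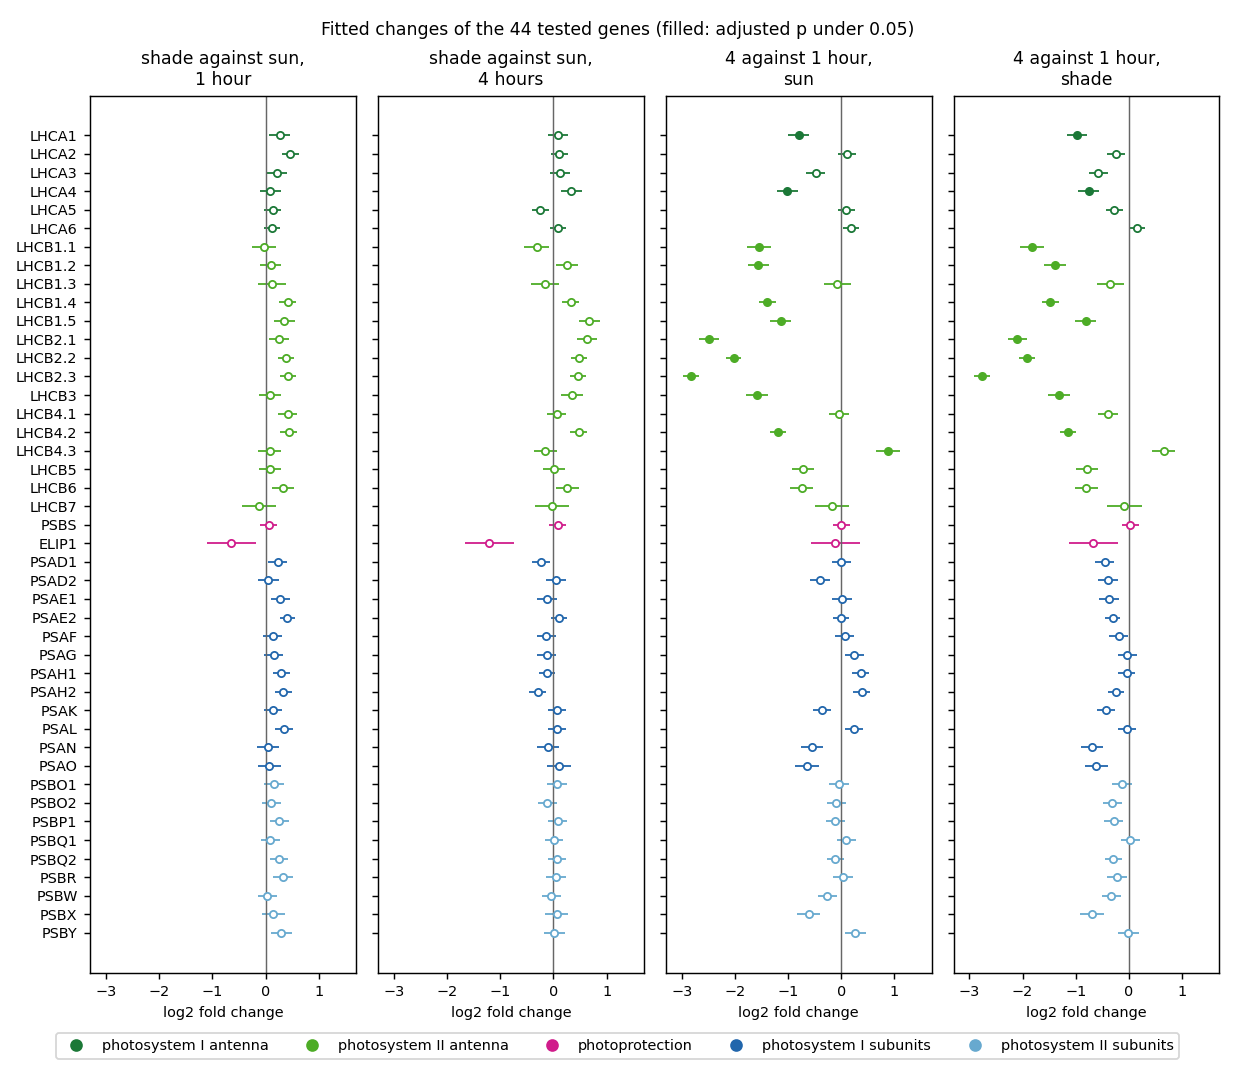
Fitted log2 fold changes (points) with standard errors (bars) of the 44 tested genes in 4 comparisons, coloured by class; filled points have an adjusted p under 0.05. In the 2 panels of time 12 and 11 points are filled, all of antenna genes, and in the 2 panels of shade against sun none is.

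Photoprotection genes showed no detectable change with time. *PSBS* (AT1G44575), whose protein senses lumen acidity and switches on heat dissipation, had 1074 and 950 CPM under sun against 1152 and 959 CPM under shade at 1 hour, and 974 and 1054 CPM under sun against 990 and 1156 CPM under shade at 4 hours. All 8 libraries lay between 950 and 1156 CPM and the log2 changes were 0.0044 (SE 0.16, limma adjusted p = 0.994) in sun and 0.03 (SE 0.16, limma adjusted p = 0.946) in shade. *ELIP1* (AT3G22840), an early light-induced protein of the antenna superfamily that accumulates under light stress, had only 2.74 and 3.91 CPM under sun against 3.03 and 0.862 CPM under shade at 1 hour, and 2.43 and 3.56 CPM under sun against 0.856 and 0.581 CPM under shade at 4 hours. Its change with time was -0.12 (SE 0.46, limma adjusted p = 0.935) in sun and -0.68 (SE 0.46, limma adjusted p = 0.426) in shade. *ELIP2* had 0.996 and 1.12 CPM under sun against 0.865 and 0.287 CPM under shade at 1 hour, and 0 and 0.950 CPM under sun against 0 and 0.291 CPM under shade at 4 hours, at most 4 reads in a library.

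Summed over genes, the 45 members took 10.5 to 12.1% of the reads on genes in the 4 libraries at 1 hour and 7.69 to 8.46% in the 4 at 4 hours. The photosystem II antenna summed to 47532 and 51914 CPM under sun against 56429 and 56742 CPM under shade at 1 hour, and to 28286 and 30156 CPM under sun against 28231 and 33783 CPM under shade at 4 hours. The core subunits summed to 39668 and 39437 CPM under sun against 46320 and 44224 CPM under shade at 1 hour, and to 37666 and 37558 CPM under sun against 36513 and 37913 CPM under shade at 4 hours. Antenna sums thus differed more between the times than core sums did. The ratio of photosystem II antenna to core CPM was 1.20 and 1.32 in sun and 1.22 and 1.28 in shade at 1 hour, and 0.751 and 0.803 in sun and 0.773 and 0.891 in shade at 4 hours. The ratio of photosystem I antenna to core CPM was 0.386 and 0.401 in sun and 0.394 and 0.411 in shade at 1 hour, and 0.263 and 0.274 in sun and 0.291 and 0.317 in shade at 4 hours. For both ratios the libraries of 1 hour and 4 hours did not overlap in either light. At 4 hours both shade libraries had a higher ratio of photosystem I antenna to core than both sun libraries, and at 1 hour the lights overlapped. These ratios were not tested.

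**Figure D4:**
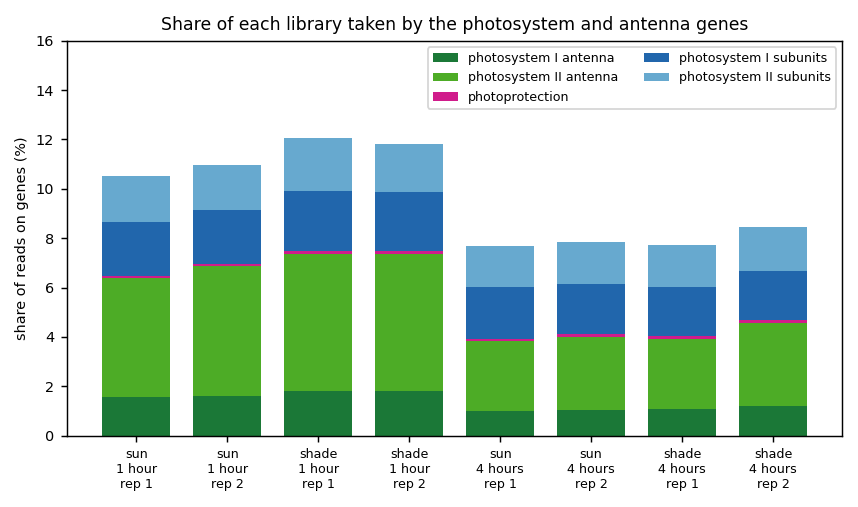
Share of the reads on genes, in percent, taken by the 45 genes in each of the 8 libraries, stacked by class. The 4 libraries at 1 hour reach 10.5 to 12.1% and those at 4 hours 7.69 to 8.46%; the photosystem II antenna segment shrinks most.

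The change with time in sun and that in shade come from separate libraries and can be set side by side. Over the 44 tested members their Spearman correlation was 0.923, and over the 15 photosystem II antenna genes 0.954, as a description across genes that share libraries and windows. All 15 photosystem II antenna genes had the same sign in both lights, and 14 were lower at 4 hours in both. Core subunits had the same sign in 12 of 21, and their Spearman correlation was 0.814. By the test of the difference itself, which is also the test of whether the shade response differs between the times, 0 of 44 members passed an adjusted p of 0.05 in limma, and 0.0104% of all genes did. An unadjusted p under 0.05 was found for 1 member, *PSAH2* (5.51% of all genes). EdgeR and DESeq2 called 0 members as well, and 3 and 15 of all genes. *PSAH2* (AT1G52230) had 1152 and 1143 CPM under sun against 1375 and 1521 CPM under shade at 1 hour, and 1445 and 1550 CPM under sun against 1312 and 1133 CPM under shade at 4 hours. The difference between its shade responses at 4 hours and 1 hour was -0.63 (SE 0.22, limma adjusted p = 0.808), and its shade libraries lay above the sun libraries at 1 hour and below them at 4 hours. The median difference was -0.14 in the photosystem I antenna, 0.04 in the photosystem II antenna and -0.22 in the core, against -0.04 over all genes, and 20 of 21 core genes were below 0, where 46% of all genes were above. The median of the photosystem II antenna genes was 0.19 without replicate 1 of shade at 4 hours and -0.13 without replicate 2, on either side of 0. The highest and lowest members of each class were *LHCA4* (0.25) and *LHCA5* (-0.37) in the photosystem I antenna, *LHCB2.1* (0.38) and *LHCB4.1* (-0.35) in the photosystem II antenna, *PSAO* (0.04) and *PSAH2* (-0.63) among the photosystem I subunits, and *PSBW* (-0.07) and *PSBY* (-0.28) among the photosystem II subunits. *PSBS* and *ELIP1* had 0.02 and -0.56.

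**Figure D5:**
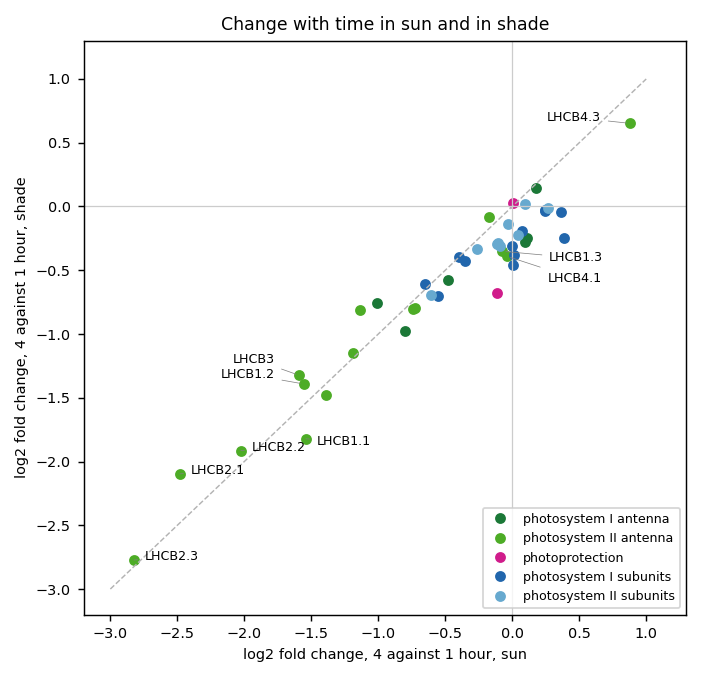
Log2 fold change from 1 to 4 hours in sun (horizontal) against that in shade (vertical) for the 44 tested genes, 1 point per gene coloured by class, with the line of equal change dashed. LHCB2.3, LHCB2.1 and LHCB2.2 lie farthest down the line, between -2.82 and -1.91, and LHCB4.3 lies at its upper end.

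Shade against sun gave far fewer calls among these genes than time did. At 1 hour 0 of the 44 members passed an adjusted p of 0.05 with limma, and neither edgeR nor DESeq2 called any. Among all genes 0.472% passed with limma, while edgeR called 138 and DESeq2 called 118. At an adjusted p of 0.001 0.0674% of all genes and 0 members passed. An unadjusted p under 0.05 was found for 8 members (6.73% of all genes). The direction was nevertheless shared: 41 of 44 members were fitted above 0, among them all 21 core genes, all 6 of the photosystem I antenna and 13 of 15 of the photosystem II antenna, where 49.9% of all genes were. In 23 members both shade libraries lay above both sun libraries and in 0 members below, against 19.5% and 18.5% of all genes. Class medians were 0.17 for the photosystem I antenna, 0.25 for the photosystem II antenna and 0.16 for the core, against -0.00019 over all genes. The members share the same 4 libraries, so that these counts are not independent of each other.
Within the photosystem I antenna the highest value was that of *LHCA2*, at 0.47 (SE 0.16, limma adjusted p = 0.512), and the lowest that of *LHCA4*, at 0.09. *LHCA2* had 1888 and 1845 CPM under sun against 2412 and 2757 CPM under shade. In the photosystem II antenna, *LHCB4.2* was the highest at 0.43 (SE 0.15, limma adjusted p = 0.526) and *LHCB7* the lowest at -0.12. *LHCB2.3*, *LHCB1.4*, *LHCB2.2*, *LHCB1.5* and *LHCB2.1* had 0.42, 0.42, 0.38, 0.35 and 0.25, with *LHCB4.1* at 0.41 and *LHCB6* at 0.33 in the same range. Among core genes the range ran from *PSBW* (0.03), a subunit that holds antenna to photosystem II, and *PSAN* (0.05) to *PSBR* (0.32) and to *PSAE2*, of the ferredoxin docking side, at 0.41 (SE 0.14, limma adjusted p = 0.497). The 95% intervals of all core genes at 1 hour lay between -0.41 and 0.72.

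At 4 hours of shade 0 members passed with limma and 0 with edgeR, while DESeq2 called 1, *LHCB1.5*. Of all genes, 0.119% passed with limma, and 0.00519% at 0.001, while edgeR called 28 and DESeq2 called 49. An unadjusted p under 0.05 was found for 6 members (8.62% of all genes), 5 of them photosystem II antenna genes. *LHCB1.5*, with 2241 and 2308 CPM under sun against 3527 and 3732 CPM under shade, had a log2 change of 0.67 (SE 0.19, limma adjusted p = 0.295), which is a mean 1.60-fold. *LHCB2.1* had 0.63 (SE 0.19, limma adjusted p = 0.313), *LHCB2.2* 0.49, *LHCB2.3* 0.47, *LHCB4.2* 0.47 and *LHCB1.4* 0.33. At the other end of this class was *LHCB1.1*, at -0.32, a value that was 0.02 without replicate 1 of shade at 4 hours. In the photosystem I antenna the values ran from -0.24 for *LHCA5* to 0.34 for *LHCA4*. Core genes were spread around 0, with 12 above and 9 below (46.6% of all genes were above), from -0.30 for *PSAH2* to 0.11 for *PSAO* in photosystem I and from -0.11 for *PSBO2* to 0.08 for *PSBP1* in photosystem II. The class medians were 0.10, 0.26 and 0.02, against -0.03 over all genes. In 12 members both shade libraries lay above both sun libraries and in 7 below, where 16.9% and 20.9% of all genes did. Without replicate 2 of shade at 4 hours the median of the photosystem II antenna was 0.01 and without replicate 1 it was 0.48, so the class value rests on single libraries.
*ELIP1* was the lowest member in shade, at -1.21 (SE 0.46, limma adjusted p = 0.482) at 4 hours and -0.65 (SE 0.46, limma adjusted p = 0.861) at 1 hour. It counted 26 reads in the sun libraries and 3 reads in the shade libraries at 4 hours, a 4.57-fold ratio of pooled levels with an exact 95% interval of 1.40 to 23.6 for counting error only. *PSBS* had 0.06 at 1 hour and 0.08 at 4 hours.

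Taking both times into 1 contrast narrowed the errors, and still 0 members passed with limma (0.628% of all genes did, and 0.0882% at 0.001), while 9 had an unadjusted p under 0.05 (9.56% of all genes). The 6 highest were all photosystem II antenna genes. *LHCB1.5* had 0.51 (SE 0.14, limma adjusted p = 0.165), *LHCB4.2* 0.45 (SE 0.11, limma adjusted p = 0.104) and *LHCB2.3* 0.44 (SE 0.11, limma adjusted p = 0.104). The other LHCB2 genes were close, with 0.44 (SE 0.13, limma adjusted p = 0.232) for *LHCB2.1* and 0.43 (SE 0.11, limma adjusted p = 0.109) for *LHCB2.2*, and *LHCB1.4* had 0.37 (SE 0.11, limma adjusted p = 0.243). Calls on these genes depended on the tool and on single libraries. On whole reads edgeR called 1 (*LHCB1.5*) and DESeq2 called 5 (*LHCB1.4*, *LHCB1.5*, *LHCB2.2*, *LHCB2.3* and *LHCB4.2*), all of them higher in shade. Of all genes edgeR called 141 and DESeq2 called 154. The lowest of the class was *LHCB1.1* at -0.18. In the photosystem I antenna the values ran from -0.06 (*LHCA5*) to 0.29 (*LHCA2*), and in the core from -0.03 (*PSAN*) and -0.0049 (*PSBW*) to 0.19 (*PSBR*) and 0.26 (*PSAE2*). *ELIP1* and *PSBS* had -0.93 (SE 0.33, limma adjusted p = 0.350) and 0.07 (SE 0.11, limma adjusted p = 0.897). Class medians were 0.17, 0.24 and 0.08 for the photosystem I antenna, the photosystem II antenna and the core, and 33 of 44 members were above 0, where 47.5% of all genes were. The median of the photosystem II antenna was 0.13 without replicate 2 of shade at 4 hours and 0.36 without replicate 1. In 8 members both shade libraries exceeded both sun libraries at each time, and in 0 they were below, against 4.5% and 5.01% of all genes.

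Beside the members, 23 other genes of photosynthesis were read: 8 genes of electron transport and the ATP synthase, 4 genes of antenna import and insertion, 5 regulators, 2 antenna-like proteins and 4 Rubisco small subunits. With shade 0 of 23 passed in limma at 1 hour, at 4 hours or over both, where 0.472%, 0.119% and 0.628% of all genes did. With time 3 passed in sun and 4 in shade, all lower at 4 hours. Of all genes 3.58% passed in sun (1.44% lower) and 3.76% in shade (1.81% lower). *GLK2*, a transcription factor that activates antenna and chlorophyll genes, had 103 and 101 CPM under sun against 96.9 and 95.7 CPM under shade at 1 hour, and 41.0 and 38.5 CPM under sun against 41.1 and 49.7 CPM under shade at 4 hours, a change of -1.34 (SE 0.15, limma adjusted p = 4.05e-04) in sun and -1.07 (SE 0.15, limma adjusted p = 0.00182) in shade. Its paralogue *GLK1* had 0.09 (SE 0.17, limma adjusted p = 0.846) and 0.16 (SE 0.17, limma adjusted p = 0.628). *CPSRP43*, a subunit of the chloroplast signal recognition particle that carries antenna proteins to the thylakoid, changed by -0.80 (SE 0.16, limma adjusted p = 0.0157) in sun and -0.71 (SE 0.16, limma adjusted p = 0.0299) in shade, whereas its partner *CPSRP54* had 0.24 (SE 0.14, limma adjusted p = 0.405) and 0.25 (SE 0.14, limma adjusted p = 0.324). The antenna-like *OHP1* passed in sun at -1.02 (SE 0.16, limma adjusted p = 0.00443) and not in shade at -0.45 (SE 0.16, limma adjusted p = 0.133), and the test of the difference gave a limma adjusted p of 0.895. In shade the plastocyanin gene *PETE1* and the ferredoxin gene *FD2*, electron carriers on either side of photosystem I, had -0.60 (SE 0.15, limma adjusted p = 0.0417) and -0.65 (SE 0.16, limma adjusted p = 0.0435). Neither passed in sun or in the test of the difference. The more abundant plastocyanin gene *PETE2* passed in neither light. Under shade it had 3287 and 3742 CPM at 1 hour and 3167 and 3394 CPM at 4 hours. Of the 4 Rubisco small subunit genes 0 passed in either light, with medians of 0.25 in sun and 0.24 in shade, and *RBCS1B* had -0.33 (SE 0.19, limma adjusted p = 0.388) in sun. Clock transcripts were read over the same hours. *TOC1*, an evening gene, passed in both lights, with 1.41 (SE 0.14, limma adjusted p = 1.69e-04) in sun and 1.50 (SE 0.14, limma adjusted p = 8.08e-05) in shade. The morning gene *CCA1* passed in sun at -1.84 (SE 0.40, limma adjusted p = 0.0244) and not in shade at -1.12 (SE 0.40, limma adjusted p = 0.132), and the difference between the lights had a limma adjusted p of 0.926. Its paralogue *LHY* passed in neither, with -1.23 (SE 0.48, limma adjusted p = 0.199) in sun and -1.57 (SE 0.48, limma adjusted p = 0.0871) in shade. Both were low at 4 hours, *CCA1* at 1.71 to 4.07 CPM and *LHY* at 0.856 to 3.97 CPM over the lights, where 1 read of the smallest library stood for 0.856 CPM. The part of the genes of this paragraph in the fall of the antenna genes was not tested.

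Returning to the upstream windows, CCAATC stood before 7 of the 11 antenna genes that were lower at 4 hours and before 3 of the other 10 antenna genes, *LHCB1.3* being among the latter. CACGTG stood before 2 of the 11 genes, AAAATCT before 4, ACAATCT before 2, GATAAG before 3, CACATG before 2 and AAATATC before 0. Among the other 10, CACGTG stood before *LHCB4.1*, *LHCB6* and *LHCB7*, AAAATCT before *LHCB4.1* and *LHCB5*, and ACAATCT before *LHCB4.1*. In the same group GATAAG stood before *LHCB6*, CACATG before *LHCB5* and AAATATC before *LHCA5*. These are counts of letters in windows and none of them was tested.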

How the data were processed

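Per the labels and the methods of the study, the authors sequenced polyadenylated RNA of 8 libraries, mapped 40-base single-end reads with TopHat to TAIR10 and used edgeR (versions, read counter and strand setting are not given in the sources used here). The deposited values are CPM, scaled by the authors to effective library sizes. Every value above 0 was a whole multiple of the smallest value of its library (100% whole within 0.01 read), which gave the reads; 0 value columns were left unused. The main test was limma 3.58.1 (R 4.3.3) on log2(CPM + 1), with 1 model of the 4 conditions and 2 libraries each, empirical Bayes with a trend, on 19280 genes with at least 1 CPM in at least 2 libraries, adjusted by Benjamini-Hochberg over all of them. Fold changes are on that log2 scale and understate those of low genes. A call is an adjusted p under 0.05, with the study's 0.001 given beside it. On the recovered reads edgeR 4.0.16 called 138, 28, 141, 983 and 702 genes and DESeq2 1.42.0 called 118, 49, 154, 715 and 577, for shade at 1 hour, at 4 hours and over both times and for time in sun and in shade. Scripts were tested on simulated data first. Exon lengths, coordinates, 40-base windows and upstream sequence came from RefSeq annotation of TAIR10.1 (locus tags matched for all 45 members), and Python 3.11.15 and matplotlib 3.10.9 were used for these and the plots. Members and lists were chosen with earlier results of these data known. Genes named are those past an adjusted p of 0.05, the highest and lowest of each class in each comparison, the photoprotection genes and the weakly expressed antenna genes; *LHCB4.1*, *LHCB1.3*, *LHCA2*, *LHCA3*, *LHCB5* and *LHCB6* are also given with time because their relatives are. Medians over a class are descriptions. p-values measure the spread between pools of 5 plants. Alternatives were the pseudocount (0.25 and 5), the filter, the scaling, the tool, a replicate block, only the 4 libraries compared, and leaving out each library.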

Additional observations from a re-analysis of the deposited data

How the results depend on the processing

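Calls with time held in direction throughout and varied in number; with 2 libraries a condition, each left-out library leaves an arm of 1, which is assumed to vary like the others. Members called with time in sun (12) ranged from 4 to 17 when a library was left out and were 22 with only the 4 libraries compared; in shade (11) they ranged from 8 to 19, and were 17 with edgeR and 20 with DESeq2. For shade over both times (0) the range was 0 to 4, with 1 by edgeR and 5 by DESeq2, and at 4 hours of shade DESeq2 called 1. Leaving out a library gave photosystem I antenna medians of 0.1158 to 0.243 (shade, 1 hour), 0.004 to 0.2042 (shade, 4 hours), -0.2444 to -0.0372 (difference) and -0.5813 to -0.3236 (time in shade), photosystem II antenna medians of -0.1274 to 0.1852 (difference), 0.1254 to 0.3586 (shade, both times) and 0.0064 to 0.4785 and core medians of -0.0798 to 0.0737 (both shade, 4 hours). The photosystem I antenna median with time in sun was -0.2641 after median ratio rescaling, -0.2659 rescaled to genes outside the members, -0.2683 with edgeR and -0.2638 with DESeq2. The cause was not tested. Reversals were of no called gene, and those under other scalings and tools were of values near 0. Those over left-out libraries included larger values, such as *LHCB1.1* at -0.32 (shade, 4 hours) and *PSBY* at -0.28 (difference). In the same order of settings *PSBS* gave -0.0678, -0.0697, -0.0742 and -0.0701 with time in sun and -0.0209, -0.0093, -0.0454 and -0.019 in shade, and *PSBQ1* -0.0268, -0.0151, -0.057 and -0.0312 in shade. *PSBW* over both times was 0.0028 with edgeR and 0.0069 with DESeq2. Ranges over left-out libraries that crossed 0 were, for shade at 1 hour, *LHCA4* -0.0486 to 0.2212, *LHCB7* -0.242 to 0.0047, *PSAN* -0.2741 to 0.3647, *PSBS* -0.0747 to 0.1892, *PSBW* -0.1865 to 0.2493. For shade at 4 hours, *LHCB1.1* -0.6581 to 0.0239, *PSAO* -0.253 to 0.4655, *PSBO2* -0.3499 to 0.1266, *PSBS* -0.0335 to 0.1902. For shade over both times, *LHCA5* -0.1432 to 0.0309, *PSAN* -0.188 to 0.1314, *PSBW* -0.1139 to 0.104. For the difference, *PSAO* -0.3232 to 0.3954, *PSBS* -0.1109 to 0.1531, *PSBW* -0.2905 to 0.1453, *PSBY* -0.6216 to 0.067. For time in sun, *ELIP1* -0.3225 to 0.0905, *LHCB1.3* -0.219 to 0.0698, *PSBS* -0.0839 to 0.0927. For time in shade, *LHCA6* -0.0648 to 0.3609, *PSAG* -0.2073 to 0.1448, *PSBQ1* -0.1788 to 0.2182, *PSBS* -0.1064 to 0.1576. Libraries of the same replicate number shared little deviation (correlations of deviations of -0.0632 to 0.103 over 6 pairs of groups). Whether replicate numbers pair the samples is not given in the sources used here. With a replicate block 11 members were called with time in sun, 13 in shade and 0 with shade. The smallest library limits low genes: 1 read there is 0.856 CPM, so *ELIP1*, *ELIP2* and *LHCB7* allow no firm statement. The clock genes *CCA1* and *LHY* were also low there, at 1.71 and 0.856 CPM.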
